A study of Mus musculus with 2 samples.

Results

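The nuclear-encoded subunits of the respiratory chain and ATP synthase were described in activated mouse CD4 T cells labelled as Gfi1 knockout or as wild type. The members were 49 genes fixed by name, of 20738 named genes on the arrays, and every spot that the platform annotation gives to one of them was used: 74 spots of 65 probes. All 49 were detected, among 13411 named genes detected on at least 1 array. They comprise 24 subunits of complex I, 4 of complex II, 6 of complex III, cytochrome c, 9 of complex IV and 5 of complex V. Of the 65 probes 64 were detected. The exception was a Cycs probe with 3.58 and 3.25 units.

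The series holds 1 one-colour (Cy3) array for a culture labelled Gfi1 knock out and 1 for a culture labelled Gfi1 wild type. Gfi1 is a zinc-finger protein that represses transcription in blood cells, and the series asks how it bears on the T helper 1 programme. By label both cultures came from naive (CD44 low, CD62L high, CD25 negative) splenic CD4 T cells of C57BL/6 mice, kept for 2 days on plate-bound anti-TCRβ at 3 µg/ml. The medium of both held IL-2 at 10 ng/ml, anti-CD28 at 1 µg/ml, and neutralising anti-IL-4 and anti-IFN-γ at 5 µg/ml each. The labels give neither the age or number of the mice nor the nature of the deletion.

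The respiratory chain sits in the inner mitochondrial membrane. Complexes I and II pass electrons from NADH and succinate to ubiquinone, complex III passes them on to cytochrome c, and complex IV reduces oxygen. Complexes I, III and IV pump protons, and complex V, the ATP synthase, uses the returning protons to make ATP. A few subunits are encoded in mitochondrial DNA, whereas the genes described here lie in the nucleus. T cells that leave the resting state enlarge their mitochondria and use respiration beside a strongly raised glycolysis.

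Each difference given is on the log2 scale and takes the knockout-labelled value minus the wild-type-labelled one, after each array was scaled to its 75th percentile (269 and 263 units). With 1 array per label no test was possible, no p-value is given, and differences between cultures or animals cannot be separated from differences between labels. The number of arrays limits the precision. Spread within the arrays could be measured: at 5000 units or more, the median SD of the difference was 0.039 over the spots of 38 probes printed 10 times, and 0.041 over the different probes of 437 genes. Gfi1 itself was the brighter in the library labelled knockout, with 18100 units there and 4260 units in the library labelled wild type. This goes against the labels unless the probe falls outside the deletion, which no source used here settles, so every direction below rests on the labels.

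The respiratory chain genes differed very little between the libraries. The median difference over the 49 members was -0.10, against -0.05 over all detected genes and -0.06 over the 1897 genes that reached 5000 units on both arrays. The members ranged from -0.29 to 0.11, with an interquartile range of 0.12, against 0.33 over all detected genes and 0.18 over the genes at 5000 units or more. Below 0 lay 39 members and above it 10, where 58.4% of all detected genes and 68.7% of those at 5000 units or more lay below 0. Scaling decided part of this: 34 members were lower and 8 higher under all 6 scalings tried, and 7 passed 0.

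None of the members differed by 2-fold, a size that 3.62% of all detected genes reached upward and 1.52% downward, and that 0.369% and 0.105% of those at 5000 units or more reached. Atp5a1 was the 1 member past 1.2-fold, and it was lower. Of all detected genes 17.2% were past 1.2-fold downward, 17.0% upward and 34.2% in either direction. At 5000 units or more these shares were 7.96%, 6.17% and 14.1%. The remaining spread was small as well, since 35 members lay within 1.1-fold and 14 were past it, against 59.1% of all detected genes and 40.6% of those at 5000 units or more. Of the members 47 reached 5000 units on both arrays, so the brighter genes are the closer comparison. The members were brighter still, with medians of 20200 (knockout label) and 21052.5 units (wild-type label), against 12090 and 12200 over those genes. The part of signal level in the members' narrower spread was not tested.

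**Figure D1:**
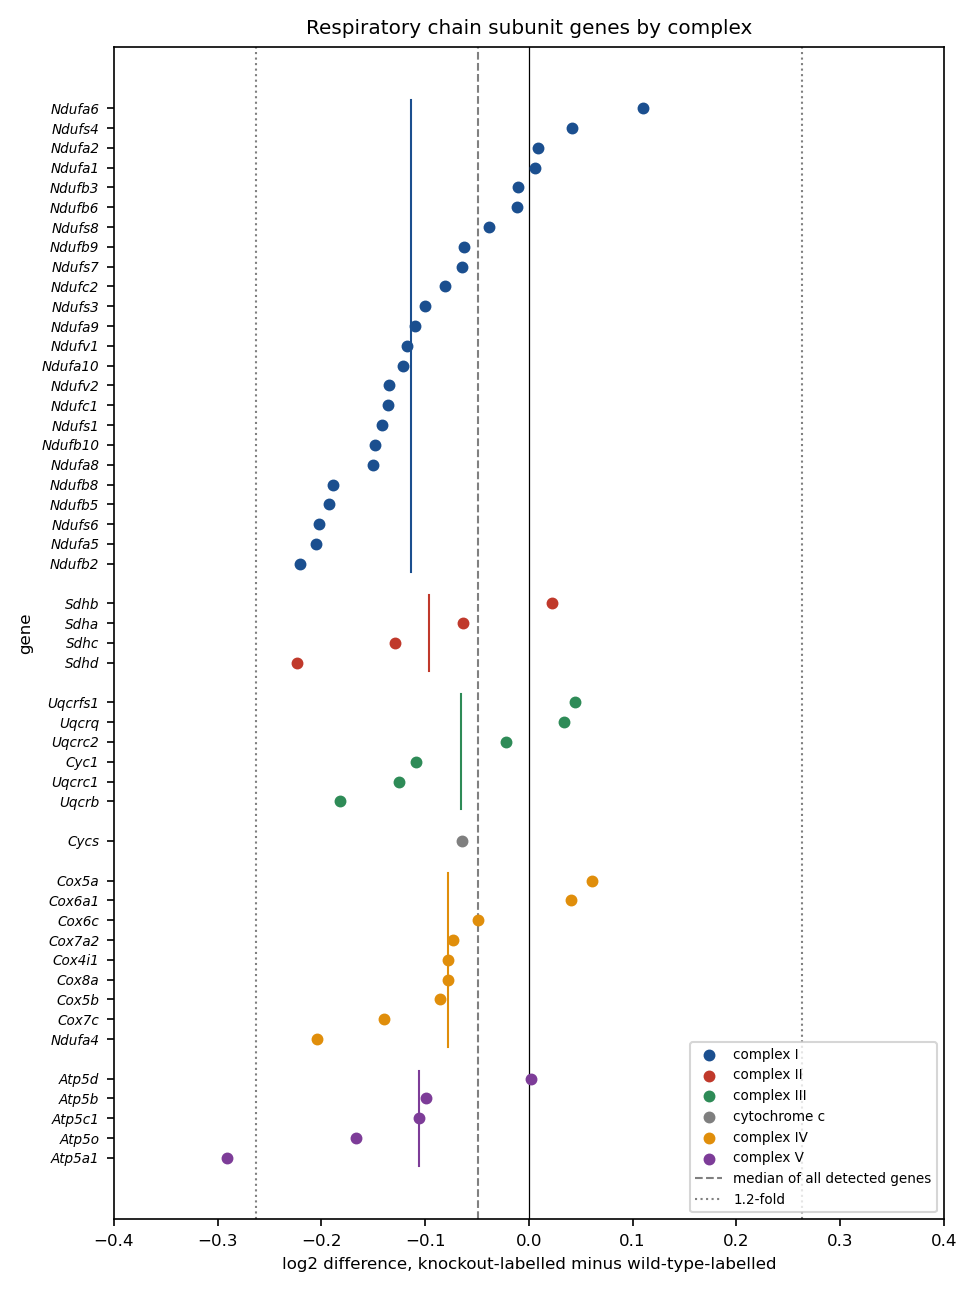
Log2 difference of each of the 49 respiratory chain genes (x axis, knockout-labelled minus wild-type-labelled), by complex. Coloured lines are the medians of the complexes, the dashed line is the median of all detected genes (-0.05) and dotted lines mark 1.2-fold, which Atp5a1 alone passed.

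**Figure D2:**
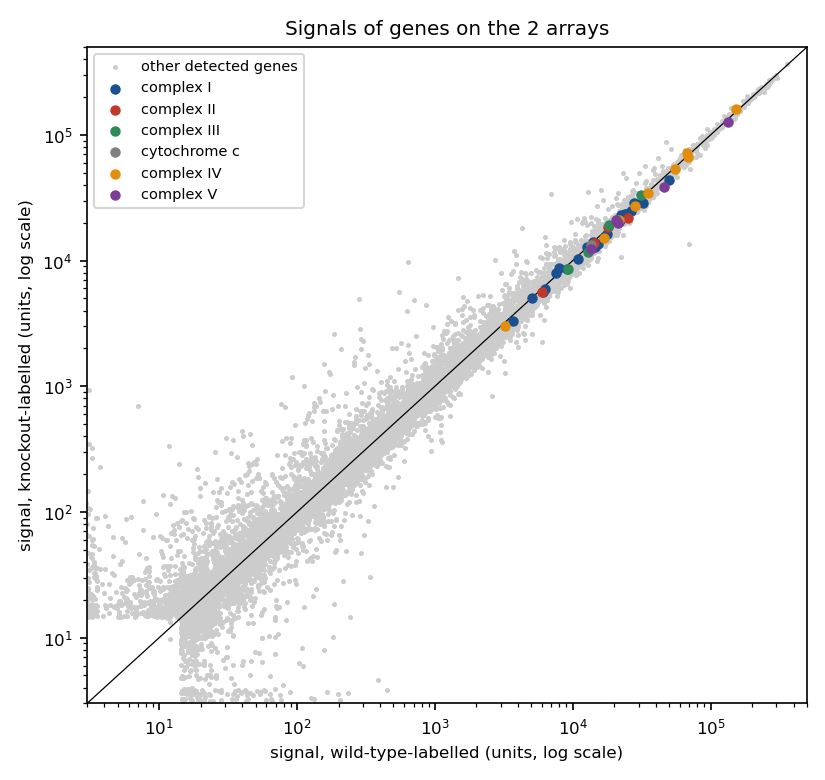
Signal of every detected gene on the array labelled knockout (y axis, units, log scale) against the array labelled wild type (x axis, units, log scale). Respiratory chain genes, coloured by complex, follow the line of equal signal in the upper range of both arrays.

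Complex I, the NADH dehydrogenase and largest complex of the chain, had a median of -0.11 over 24 members, from -0.22 to 0.11, with 20 below 0 and 4 above. Its catalytic core carries the flavin and the iron-sulphur clusters that lead electrons to ubiquinone. The 6 core members, Ndufs1, Ndufs3, Ndufs7, Ndufs8, Ndufv1 and Ndufv2, had a median of -0.11 and lay close together, from -0.14 to -0.04. Ndufs8 passed 0 under another scaling (0.025). Ndufv1, which binds NADH and the flavin, had 24800 units in the library labelled knockout, against 26300 in the library labelled wild type, a difference of -0.12. Its partner Ndufv2 read 16400 and 17600 units in the same order (-0.13), and Ndufs1, the iron-sulphur subunit of the peripheral arm, 10200 and 11000 units (-0.14).

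The 18 accessory members of complex I had a median of -0.12 and a wider range, with 14 below 0. Both ends of the whole complex were accessory subunits. Ndufb2 had 12810 units in the library labelled knockout, against 14589 in the library labelled wild type, a difference of -0.22 with an SD of 0.031 over its 2 probes. Ndufa5 read 13591 and 15317 units in that order (-0.21), and its 2 probes differed with an SD of 0.0092. At the other end Ndufa6 had 8700 units in the library labelled knockout and 7880 units in the library labelled wild type (0.11, 1 probe). Ndufs4, an accessory subunit whose loss in mice causes an encephalopathy, read 7950 and 7550 units in the same order (0.042). Ndufs6, with 44100 and 49600 units (-0.20), and Ndufb8, with 28800 and 32100 units (-0.19), were among the lowest.

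The other accessory members filled the span between these ends. Ndufa8, a subunit rich in cysteine pairs, had 5650 units in the library labelled knockout and 6130 in the library labelled wild type (-0.15), and Ndufb10 of the membrane arm had 22800 and 24700 units in that order (-0.15). Ndufc1 (-0.14), Ndufa10 (-0.12), Ndufa9 (-0.11), Ndufc2 (-0.08) and Ndufb9 (-0.06) followed, between 5960 and 23400 units in the library labelled knockout for the first 4. Ndufa2 (0.0085), Ndufb3 and Ndufb6 (-0.01 each) lay close to 0, and Ndufb3 and Ndufb6 passed it under another scaling. Among core members not yet given, Ndufs3 stood at -0.10, Ndufs7 at -0.06 and Ndufs8 at -0.04.

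Ndufb5 shows how much a single dim probe can move a gene. Its brighter probe gave 12800 units in the library labelled knockout and 13000 units in the wild-type-labelled library (-0.05), and its dimmer probe 862 and 1060 units (-0.33). The gene's value of -0.19 is their mean. Ndufa1, which lies on the X chromosome, had 22900 and 22300 units in the same order (0.0058). Over the 6 scalings tried its value ran from -0.0018 to 0.061. The cultures differed in sex-linked transcripts, with Xist at 3.86 units in the library labelled knockout and 447 units in the wild-type-labelled library, and the Y-linked Eif2s3y at 3870 and 2.91 units in that order. Leaving out sex-linked genes left 48 members and a median of -0.10. This set aside Ndufa1 alone, and in the other members a difference of sex cannot be told apart from the labels.

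Promoter sequence was compared as a feature that the choice of members did not use. RefSeq windows of 300 bases (250 before and 50 after the annotated start, GRCm38.p6) were found for 38 of the 49 members. The word AAGATGGC, the core of the sequence bound by the zinc-finger factor YY1, was searched on both strands. It occurred in 6 of the 38 windows (15.8%), which were 6 of 21 complex I windows (28.6%) and 0 of 17 windows of the other members. It occurred in 6.90% of 1479 genes at 5000 units or more on both arrays and in 3.57% of 17491 protein-coding genes. In all 6 windows it stood after the start, on the strand of the gene, with its first base between positions 23 and 39 (the first transcribed base is 1). Of the 102 genes at 5000 units or more that hold the word, 42.2% had it after the start on the strand of the gene, at any position there. The 6 stretches of 30 bases are shown because they share this word and its place. Capitals mark the word.
Ndufs6: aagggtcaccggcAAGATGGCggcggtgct
Ndufb8: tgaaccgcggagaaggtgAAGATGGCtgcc
Ndufc1: gcctgcggaacAAGATGGCgccgtccgtag
Ndufa9: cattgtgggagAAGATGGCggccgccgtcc
Ndufs7: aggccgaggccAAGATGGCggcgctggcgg
Ndufs4: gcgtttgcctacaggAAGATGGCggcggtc
These lie at chr13:73328433-73328462 (minus strand), chr19:44555393-44555422 (minus), chr3:51408915-51408944 (minus), chr6:126849097-126849126 (minus), chr10:80249462-80249491 (plus) and chr13:114388045-114388074 (minus), in the order printed. The 6 genes with the word had a median difference of -0.12 (from -0.20 to 0.042), against -0.12 (from -0.22 to 0.11) over the 15 other complex I members with a window. These ranges overlap over most of their length. A match of letters is a description and not a binding site. The word also holds the letters ATG, and its place relative to the start codons of these genes was not tested.

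Complex II, the succinate dehydrogenase that is also an enzyme of the TCA cycle, had a median of -0.10 over its 4 subunits, all of which are encoded in the nucleus. Sdha, the flavoprotein, had 13900 units in the library labelled knockout, against 14200 in the library labelled wild type (-0.06). Sdhb, the iron-sulphur subunit, read 18624 and 17925 units in that order, a difference of 0.023 with an SD of 0.057 over 2 probes that lay on both sides of 0. The membrane anchors were the lower pair: Sdhc stood at -0.13 with an SD of 0.028 over 2 probes (5594 and 5980 units), and Sdhd at -0.22 on 1 probe (21900 and 25000 units). Both anchors lay below both catalytic subunits. That order rests on 4 genes and 1 array per label.

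Complex III, the cytochrome bc1 complex, had a median of -0.07 over 6 members, of which 2 lay above 0. Uqcrfs1, the Rieske iron-sulphur protein, had 19300 units in the library labelled knockout, against 18300 in the library labelled wild type (0.044). Cyc1, which carries the haem that hands electrons to cytochrome c, read 20300 and 21400 units in the same order (-0.11). Uqcrb, a small subunit near the ubiquinone site, was the lowest, at 11638 and 12907 units (-0.18, SD 0.041 over 3 probes), whereas the small subunit Uqcrq stood at 0.034 with an SD of 0.0030 over 2 probes.

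Uqcrc2, a structural core subunit of complex III, is the member measured most often, since its probe was printed on 10 spots. These gave 20300 to 22300 units in the library labelled knockout and 20000 to 21900 units in the wild-type-labelled library, and the ranges overlap over most of their length. The spots' differences ran from -0.08 to 0.013 with an SD of 0.029 and a mean of -0.02, a value that passed 0 under other scalings. Its partner core subunit Uqcrc1, on a single spot, stood at -0.12 (8640 and 9210 units). Cycs, the soluble carrier that also triggers the apoptosome when it leaves mitochondria, had 13349 units in the library labelled knockout and 13642 units in the library labelled wild type over its 2 detected probes (-0.06, SD 0.056).

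**Figure D3:**
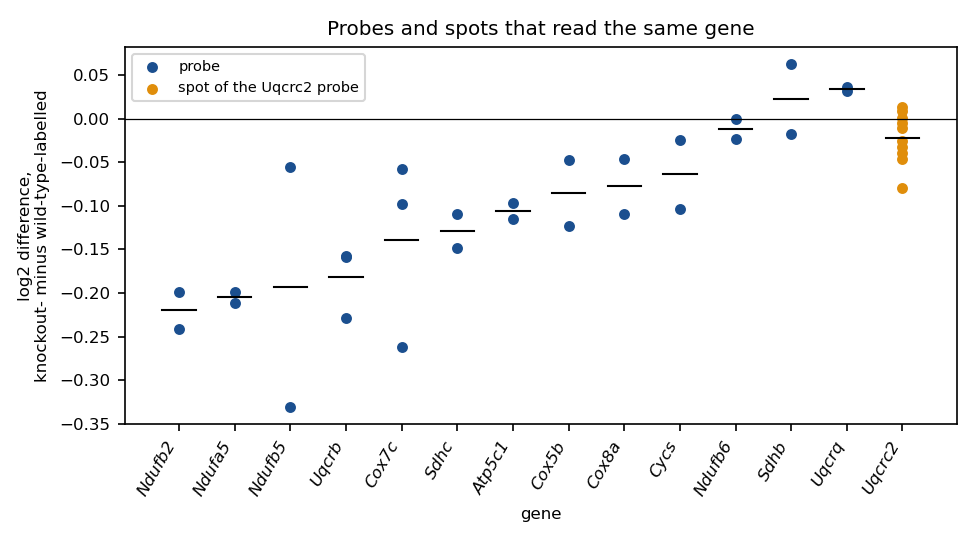
Log2 difference (y axis, knockout-labelled minus wild-type-labelled) of the separate probes of the 13 members read by several detected probes, and of the 10 spots of the Uqcrc2 probe (last column); bars are means. Ndufb5 and Cox7c have the widest spread, and the probes of Sdhb lie on both sides of 0.

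Complex IV, cytochrome c oxidase, had a median of -0.08 over 9 members, from -0.20 to 0.061, with 7 below 0. Cox5a, a matrix-side subunit, had 71600 units in the library labelled knockout, against 67100 in the library labelled wild type (0.061), and Cox6a1, the liver-type isoform used by most tissues, read 162000 and 154000 units in that order (0.041). Cox4i1, the common isoform of the subunit that binds ATP, read 53800 and 55500 units (-0.08). Cox8a (-0.08), Cox5b (-0.09), Cox7a2 (-0.07) and Cox6c (-0.05) lay in the same narrow range; Cox6c passed 0 with cyclic loess. The lowest was Ndufa4, once taken for a complex I subunit and now placed in complex IV, with 15000 and 16900 units (-0.20). Cox7c stood at -0.14. Its 2 bright probes gave -0.10 and -0.06, and the remaining one, with 93.0 and 109 units, gave -0.26.

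The promoter window of Cox6a1 held 2 of the other words searched on both strands. These were the palindromic NRF1 core, which is the first run of capitals in the sequence printed here, and CCGGAAG, an ETS-type core bound by GABP. Both factors are textbook activators of respiratory genes. The 180 bases before its start (chr5:115348959-115349138, minus strand, GRCm38.p6, RefSeq) are shown because this was the only member window with both, and capitals mark the words, the second as its reverse complement.
Cox6a1: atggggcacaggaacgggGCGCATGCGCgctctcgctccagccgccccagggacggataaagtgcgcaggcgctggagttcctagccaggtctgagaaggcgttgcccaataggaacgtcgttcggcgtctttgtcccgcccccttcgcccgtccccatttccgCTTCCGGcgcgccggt
The NRF1 word occurred in 2 of 38 member windows (5.26%), those of Cox6a1 and Uqcrc1. It occurred in 2.37% of the windows of genes at 5000 units or more and in 1.47% of those of protein-coding genes. The GABP word occurred in 7 (18.4%), between the 27.3% and 12.9% of these backgrounds in that order. A form of the ERRα site, TNAAGGTCA, occurred in 1 window, that of Sdhd, against 1.22% and 1.2%. In the split given for the YY1 word, the NRF1 word occurred in 0 of 21 complex I windows and 2 of 17 others. For the GABP word these counts were 3 and 4, and for the ERRα form 0 and 1. These shares describe the windows alone, and a missing word says only that these letters are not in that window.

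Complex V, the ATP synthase, had a median of -0.11 over 5 members, with 4 below 0. Atp5a1, which encodes the alpha subunit of the catalytic F1 head, was the lowest of all 49 members, with 38300 units in the library labelled knockout and 45800 units in the library labelled wild type (-0.29, or 0.818 of the wild-type-labelled level). Its single probe is 1 spot, with feature number 51608, so no second reading of it exists on these arrays, and it left the count when spots numbered above 50000 were set aside. Atp5b, the beta subunit that forms the catalytic sites with alpha, read 127000 and 133000 units in that order (-0.10). The central stalk differed within itself, with Atp5c1 (gamma) at -0.11, SD 0.013 over 2 probes, and Atp5d (delta) at 0.0019 (21200 and 20700 units). Over the 6 scalings tried Atp5d ran from -0.0056 to 0.054. Atp5o, which joins F1 to the peripheral stalk, stood at -0.17 (12300 and 13500 units).

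**Figure D4:**
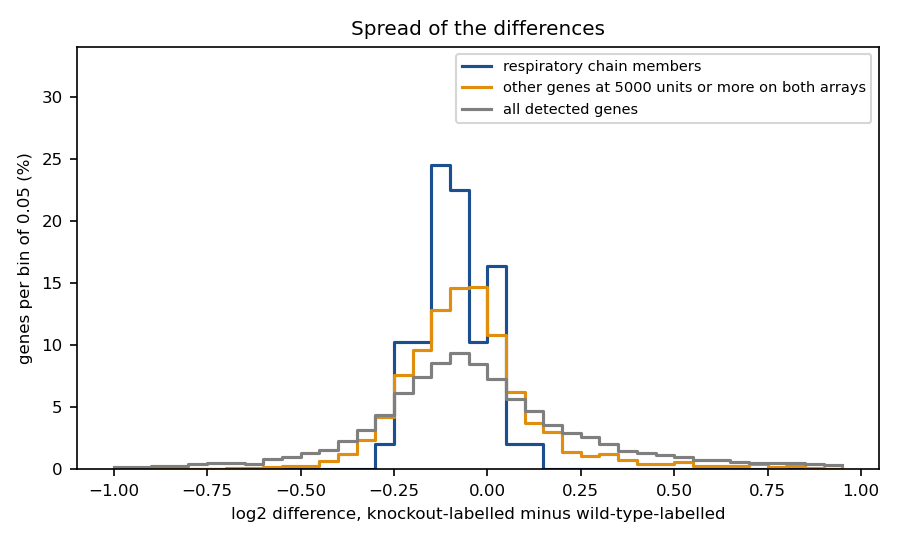
Share of genes per bin of 0.05 (y axis, %) by log2 difference (x axis, knockout-labelled minus wild-type-labelled) for the 49 members, for other genes at 5000 units or more on both arrays and for all detected genes. The members occupy -0.29 to 0.11. Their interquartile range was 0.12, against 0.18 over the other genes at 5000 units or more and 0.33 over all detected genes.

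Other genes of the same machinery, from lists chosen with earlier results of these data known, gave similar values. Of 26 detected nuclear subunits outside the members 23 lay below 0 and 3 above, with a median of -0.13, a range of -0.26 to 0.050 and 0 past 1.2-fold. The lowest were Uqcr11 (-0.26), a small complex III subunit, and the X-linked Cox7b (-0.22), a complex IV subunit. Of 11 subunits encoded in mitochondrial DNA 9 lay below 0, with a median of -0.08. Among them mt-Co1, the subunit of complex IV that holds the site of oxygen reduction, had 232000 units in the library labelled knockout, against 221000 in the library labelled wild type (0.038), and mt-Nd3 of complex I was the lowest at -0.30 (29400 and 35300 units). Nuclear copies of mitochondrial sequence could also bind these probes. Of these 11 only mt-Nd3 was past 1.2-fold.

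Of 10 genes on a list meant for subunit isoforms of muscle, lung or testis 5 were detected, 4 of them above 0. The list's median of 0.066 is the value of Cox7a2l, which is widely expressed and not such an isoform. Cox6a2, the heart and muscle form, had 109 units in the library labelled knockout, against 56.0 in the library labelled wild type (0.93), and Cox7a1, likewise a muscle form, 610 and 339 units in that order (0.81). Their common counterparts Cox6a1 and Cox7a2 stood at 0.041 and -0.07. Cox4i2, the lung form, stood at -0.01 with 127 and 125 units. Ndufa4l2, Cox8b, Cox8c, Cox7b2 and Cyct were detected on neither array, at 8.06 units or less. Cox6a2, Cox7a1 and Cox4i2 were each read by a single probe, so no spread between probes can be given.

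Assembly factors, which build the complexes without being part of them, varied more than the subunits. Of 43 detected 31 lay below 0 and 12 above, with a median of -0.09 and a range of -0.46 to 0.88. Past 1.2-fold were 9 of the 43 (2 higher, 7 lower), where 34.2% of all detected genes were. The interquartile range of the factors was 0.18, against 0.33 over all detected genes. Uqcc3, a complex III factor, had 6440 units in the library labelled knockout and 8690 units in the wild-type-labelled library (-0.46), and Acad9, a complex I factor, 3440 and 4570 units in that order (-0.44). The complex IV factors Cox18 and Sco1 stood at the other end, at 0.88 (2620 and 1390 units) and 0.73 with an SD of 0.22 over 2 probes. Most of these genes were dimmer than the members: 7 of the 43 reached 5000 units on both arrays.

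Genes that supply or build mitochondria showed medians from -0.16 to -0.04. The TCA cycle list stood at -0.04 over 15 genes, with Ogdh at 0.27 and Pdhb at -0.27 as its ends, with SDs of 0.43 and 0.31 over 3 probes each. Protein import genes stood at -0.10 over 12. Mitochondrial ribosomal protein genes, with 65 of 77 below 0, had a median of -0.14, and genes with symbols of cytosolic ribosomal proteins a median of -0.05 over 78. Regulators of respiratory genes stood at -0.16 over 13, with Tfb2m, a mitochondrial transcription factor, at -0.51 (984 and 1370 units) and Myc at 0.50. Nrf1, Gabpa and Yy1, whose binding words were searched above, stood at -0.19 (SD 0.29 over 3 probes), -0.06 (SD 0.21 over 2) and -0.10, and Esrra, the gene of ERRα, at 0.16 (3070 and 2680 units). The coactivator gene Ppargc1a read 11.0 units in the library labelled knockout, below the detection floor, and 15.9 units in the library labelled wild type. Its difference of -0.16 is a bound whose direction the detection rule fixed. That bound is also the median given for the regulators.

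Hypoxia genes that act on respiration lay mostly above 0, with 5 of 6 detected genes above 0 and a median of 0.23. Hif1a, the oxygen-regulated factor, had 352 units in the library labelled knockout, against 159 in the library labelled wild type (1.12, SD 0.11 over 2 probes). Bnip3, a mitophagy receptor, stood at 0.86 with an SD of 0.082 over 3 probes (2352 and 1268 units). Pdk1, the kinase that keeps pyruvate out of the TCA cycle, stood at 0.16, and Higd1a and Lonp1 at 0.26 and 0.20. Cox4i2, also on this list, is the isoform given above.

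**Figure D5:**
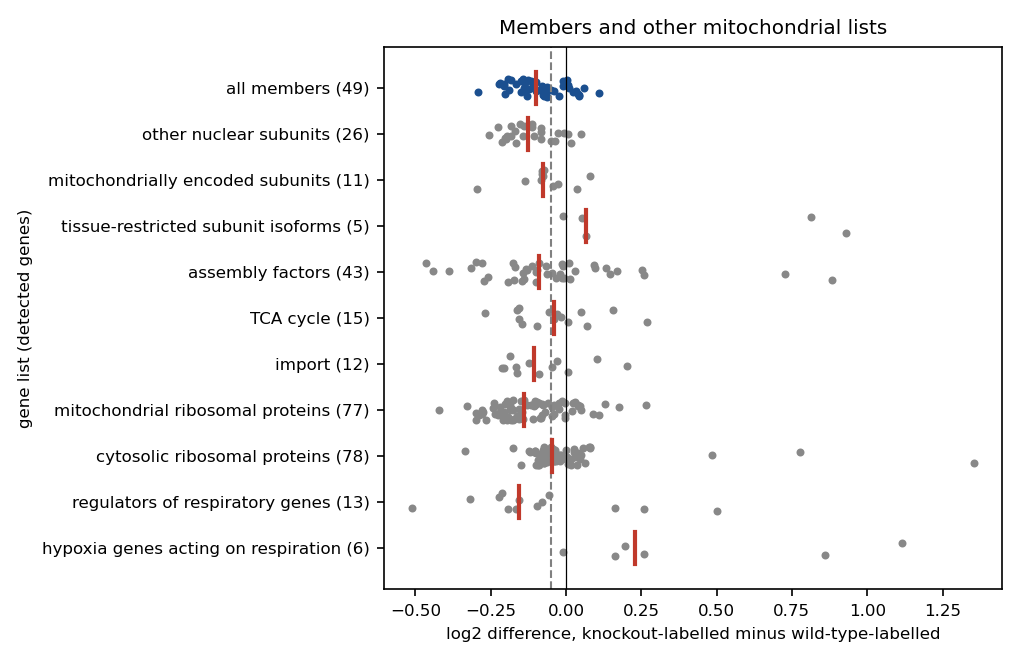
Log2 difference (x axis, knockout-labelled minus wild-type-labelled) of each detected gene of the members and of 10 other lists, with the number of genes in brackets; red bars are medians and the dashed line is the median of all detected genes (-0.05). Members cluster between -0.29 and 0.11, and the tissue isoforms, assembly factors and hypoxia genes spread further.

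Markers of other cells differed between the libraries, unevenly within their lists. Of the 9 CD8 T and NK cell markers 5 were detected on both arrays by at least 1 probe, and these 5 were higher in the library labelled knockout. The other 4 were detected in that library only. Their differences are bounds whose direction the detection rule fixed. Summed signals of all 9 were 1309 units in the library labelled knockout and 457 units in the library labelled wild type. Of CD4 T cell markers 7 of 9 were measured, with sums of 146585 and 171956 units in that order. Of these 6 lay below 0, where 68.7% of genes at 5000 units or more lay below 0, and the median was -0.23. Past 1.2-fold downward were 3, Cd5 and Cd3e at -0.43 and Cd3g at -0.41, where 7.96% of genes at 5000 units or more were. Cd4 stood at -0.14. Cd2 went the other way, with 19839 and 13637 units (0.51, SD 0.076 over 2 probes).

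Of B cell markers 6 of 8 were detected, with sums of 1117 units in the library labelled knockout and 524 units in the wild-type-labelled library. Pax5 was detected on neither array. Blnk, with 386 and 30.6 units, and Ms4a1, with 221 and 18.9 units, made most of that gap, while Cd79b stood at -0.17. Of myeloid markers 5 of 8 were detected, 3 of them as a bound (Mpeg1, Cd68 and Adgre1), with sums of 645 and 324 units. Mpeg1, with 335 and 11.7 units, made nearly all of that gap. Mpeg1 and Cd68 were detected in the library labelled knockout only. Adgre1, with 11.0 and 15.7 units, was detected in the library labelled wild type only. The detection rule fixed the direction of each of these bounds. Csf1r (0.014) and Itgam (-0.07) lay near 0, and Cd14, Cybb and Lyz2 were detected on neither array. The 2 erythroid markers detected of 5 went opposite ways, Hba-a1 with 37.2 and 11.3 units and Slc4a1 with 15.5 and 19.8 units. Hba-a1 too was a bound, detected in the library labelled knockout only. The part of these markers in the small differences of the members was not tested, and in bulk RNA fewer cells of a type cannot be told from less RNA per cell.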

How the data were processed

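RNA of 2 cultures (100 ng each, per the labels) was labelled with Cy3 and read on 1 array each, processed with Agilent Feature Extraction 11.5.1.1 per the submitters' processing notes. The deposited per-array files by the authors give an intensity per spot (59305 spots) on a linear scale; no source used here gives their background correction, and the files hold no flag columns. A deposited table of the whole series gives intensity values that are 2.26 (knockout label) and 2.27 (wild-type label) times these at the median, not centred, and served as an alternative; the basis of the constants stays unknown.

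Log2 signals were averaged over spots of a probe and scaled to the array's 75th percentile. A probe above the array's median (14.6 and 14.2 units) counted as detected, an undetected side was set to that floor, and a gene is the mean over probes detected on at least 1 array. Signals of genes with several probes are geometric means. Symbols of the platform annotation, which lists 31465 spots with a symbol, were updated through the RefSeq gene table. Members were taken by annotation symbol, Ndufa4 in complex IV. No test was made with 1 array per label; genes were counted by size, at 1.1-fold, 1.2-fold and 2-fold.

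The members and all lists were chosen with earlier results of these data known. Every member could be named, and of other lists the largest differences each way; core complex I subunits, the B cell, myeloid and erythroid markers named, Esrra, Cox7a2l, Cd4, Cox4i2, Pdk1, Lonp1, Ppargc1a, Nrf1, Gabpa, Yy1, mt-Co1 and the muscle isoforms beside their counterparts were picked after values were seen. Comparison with genes at 5000 units or more was added after the data were seen. Steps were tested on simulated data. Python 3.11.15, numpy 2.4.6, pandas 2.3.3, matplotlib 3.10.9 and limma 3.58.1 in R 4.3.3 were used.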

Additional observations from a re-analysis of the deposited data

How the results depend on the processing

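The members' median stayed below 0 under all 15 alternatives, between -0.12 and -0.05. Under these no member reached 2-fold or was 1.2-fold higher. With cyclic loess the medians came to -0.048 for all members, -0.056 for complex I, -0.038 for complex II, -0.013 for complex III, -0.031 for complex IV and -0.059 for complex V. Complex III moved to -0.020 with quantile normalization and to -0.11 without spots above feature number 50000 (44 members left). Complex IV moved to -0.17 with only probes under 20000 units, where Ndufa4 and Cox7c alone remained of its members. That setting left 25 members in all, 20 of them below 0. Relative to all genes the members' median of -0.05 became -0.14 with no filter and no floor, where the median of all genes itself lay at 0.036. The 1 member at least 1.2-fold lower became 0 with cyclic loess, without scaling, and in the 2 settings that drop its spot or bright probes. It became 14 at 1.1-fold and 0 at 1.5-fold. The cause of these shifts was not tested, except that fewer probes enter in the settings named. No paired analysis was possible because each label has 1 array. By more than the spread between probes, cyclic loess moved 47 of 49 members, quantile normalization 17 and the brightest probe 2. The median of all detected genes moved upward too, by 0.061 with cyclic loess (to 0.012) and by 0.019 with quantile normalization. The 47 and 17 members therefore include a shift shared with all genes. Dim probes limit single members. Ndufb5 came to -0.055 with its brightest probe, Cycs to -0.0069 with no filter and no floor, and Cox7c to -0.078 with the floor at the 75th percentile.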
